A study of Mus musculus with 2 samples.

Results

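The dystrophin-glycoprotein complex was followed through the transcripts of 8 genes, taken by name from 55536 annotated genes in the deposited tables: Dmd, Utrn, Dag1, Sgca, Sgcb, Sgcd, Dtna and Sspn. Their levels come from total RNA-seq of the gastrocnemius, a calf muscle, taken from 2 male mice at 25 days of age. The animals were B6Cast F1 (B6CASTF1/J), the first-generation cross of a C57BL/6J and a CAST/EiJ parent, and the labels name no treatment or engineered allele. From each animal 1 library was made with 300 ng of RNA, so the design holds 1 group and compares no condition. The tissue samples are numbered as different males but share a donor entry, so any p-value below measures only the difference between these libraries, which may be technical in part.

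The complex spans the membrane of the muscle fibre. On the inner side dystrophin, encoded by Dmd, binds actin filaments and the tail of beta-dystroglycan. Outside, alpha-dystroglycan carries sugar chains that bind laminin and other proteins of the basement membrane. The sarcoglycans and sarcospan form a subcomplex in the membrane, and alpha-dystrobrevin and the syntrophins bind dystrophin on the cytoplasmic side. Utrophin is a close relative of dystrophin that in mature fibres is known chiefly from the neuromuscular and myotendinous junctions. Loss of dystrophin, of a sarcoglycan or of the sugar chains is known from muscular dystrophies.

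The sequences just upstream of 4 start sites are shown because they begin the long and the short dystrophin transcripts and the genes with the highest levels. Each run holds the 250 bases before a RefSeq start (GRCm38.p6), 5′ to 3′ on the strand of the gene. Capitals mark matches on either strand to CANNTG (the E box of myogenic factors), to the CArG box (bound by serum response factor) and to CCGCCC (a GC-rich element). The first pair are the starts of the long dystrophin transcript Dmd-203, chrX:82948620-82948869 on the plus strand, and of the short transcripts from the far end of the gene, chrX:85048045-85048294 on the plus strand. The other pair lie before Sgca, chr11:94976328-94976577 on the minus strand, and Dag1, chr9:108263959-108264208 on the minus strand.
Dmd, long transcript: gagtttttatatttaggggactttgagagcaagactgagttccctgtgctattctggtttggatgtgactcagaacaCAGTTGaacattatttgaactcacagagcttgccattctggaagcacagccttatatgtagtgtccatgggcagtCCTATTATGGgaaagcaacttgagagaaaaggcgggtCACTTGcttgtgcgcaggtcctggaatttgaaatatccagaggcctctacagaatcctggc
Dmd, short transcripts: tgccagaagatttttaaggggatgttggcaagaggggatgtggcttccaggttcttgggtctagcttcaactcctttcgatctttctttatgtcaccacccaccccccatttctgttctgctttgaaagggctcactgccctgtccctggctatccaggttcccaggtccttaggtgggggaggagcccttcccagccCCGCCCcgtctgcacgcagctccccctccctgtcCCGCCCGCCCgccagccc
Sgca: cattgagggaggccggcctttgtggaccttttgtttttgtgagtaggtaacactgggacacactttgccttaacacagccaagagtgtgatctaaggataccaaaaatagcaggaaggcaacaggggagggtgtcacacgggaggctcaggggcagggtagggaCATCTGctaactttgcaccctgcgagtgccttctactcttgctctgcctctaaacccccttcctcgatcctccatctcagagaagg
Dag1: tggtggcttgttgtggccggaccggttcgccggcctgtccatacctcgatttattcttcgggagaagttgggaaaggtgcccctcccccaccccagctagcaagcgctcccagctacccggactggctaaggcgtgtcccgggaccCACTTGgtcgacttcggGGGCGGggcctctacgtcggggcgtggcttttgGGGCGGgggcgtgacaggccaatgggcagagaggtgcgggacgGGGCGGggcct

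The window before the long dystrophin transcript held 1 CArG box, starting 98 bases before the start site, and CANNTG at 173 and 61 bases before it. The window before the short dystrophin transcripts held neither of these and had CCGCCC at 52, 18 and 14 bases before the start. Sgca had 1 CANNTG, 86 bases before its start, and no CCGCCC. Dag1 had CCGCCC at 87, 54 and 11 bases before the start and CANNTG at 104. The GC content was 45.2% and 60.0% in the Dmd windows, 52.8% in Sgca and 67.6% in Dag1, with 2, 7, 4 and 21 CpG sites. Over 32841 RefSeq windows of the same length the median was 52.4% GC and 6 CpG sites. CANNTG occurred in 66.2% of those windows, CCGCCC in 32.7%, the CArG box in 1.47% and CATTCCT, an element of muscle genes that none of the 4 windows held, in 4.51%. None of these motifs overlapped another kind in the 4 windows, and a match describes letters only. Transcripts starting within 200 bases of the long Dmd start had 10273 expected counts in animal 1 and 10938 in animal 2. Those at the short start had 57.7 and 57.5, but 27.8 and 44.5 in the second quantification. These counts cover whole transcripts and rise with their length, so they do not measure the use of a start.

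The libraries held 35098487 and 37428588 expected counts, of which the 8 genes took 0.103% and 0.108%. Of the skeletal muscle fibre markers all 8 were detected, with summed levels of 92808 TPM in animal 1 and 93026 in animal 2. Within that sum single markers moved in both directions, such as Myh4 (10347 and 9464 TPM) and Acta1 (21950 and 23735). TPM gives each gene its part of all transcripts after correction for their length. Of 5 cardiac markers Nppa and Myl7 had no counts in either library and Tnni3 had 3 and 2. Myh6, whose sequence is close to that of other myosin heavy chains, stood at 58.50 and 78.19 TPM, and Myl4 at 2.18 and 3.53. Neuronal markers summed to 0.68 and 0.67 TPM, with Snap25 and Syt1 at 0 in animal 2. Other cell types in the sample differed between the animals. Schwann cell markers, those of the myelinating cells of nerve, summed to 57.0 TPM in animal 1 and 115.9 in animal 2, and slow fibre markers to 971 and 1815. Fibroblast markers went the other way, at 1235 and 832 TPM, mostly through Col1a1 (864.0 and 469.05), without which the other 4 summed to 371 and 362. Smooth muscle and pericyte markers summed to 773 and 869 TPM, most of it Des, which muscle fibres also express, and to 95.8 and 120.4 without Des. Endothelial markers stood at 112 and 128, and satellite cell markers at 11.3 and 12.9. In whole tissue, fewer cells of a type and less RNA per cell cannot be told apart.

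All 8 genes were detected, that is, at a TPM of 1 or more in both animals, against 9937 of 22015 nuclear protein-coding genes (45.1%). Their mean levels ran from 9.98 TPM for Utrn to 103.6 for Sgca, and 7 of the 8 stood above 82.5% or more of the detected genes. Summed, they reached 338.8 TPM in animal 1 and 350.0 in animal 2 (mean 344.4 ± 7.89, SD, n = 2). In the first quantification, over all transcripts, Sgca was highest in both animals, then Dag1, then Dmd, and Utrn was lowest. Summed over protein-coding transcripts only, Dmd ranked 7 of 8 by mean level. The levels of Sgcb and Dtna overlapped between animals, as did those of Sgcd and Sspn, so neither of those pairs has an order here. Dmd lay above Sgcb by a factor of 1.07 in mean level, with no overlap of the animals but with overlapping posterior intervals in each. Each other neighbour in the order was separated in both animals.

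**Figure D1:**
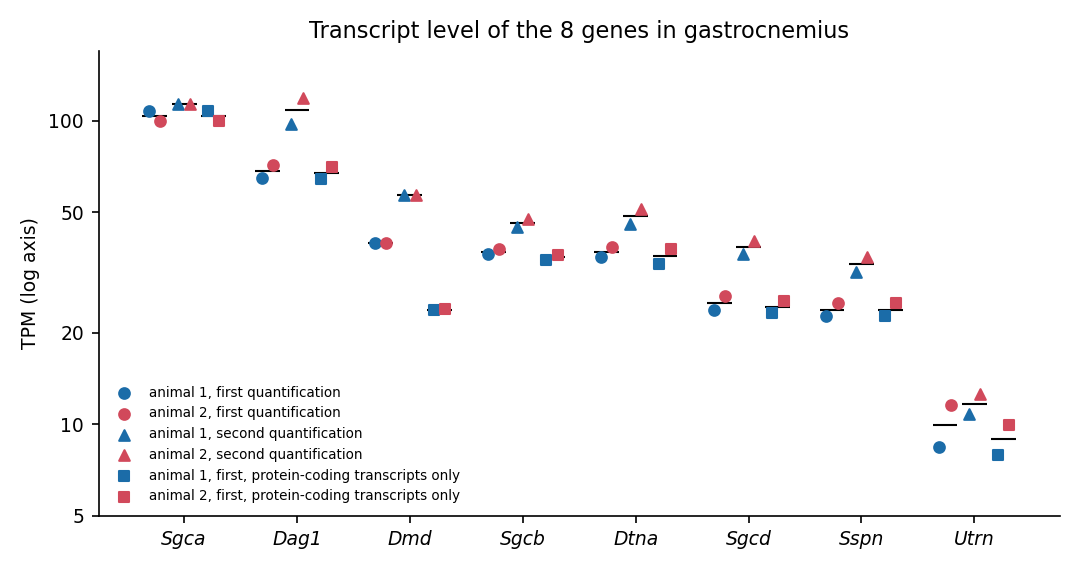
Level of the 8 genes in TPM on a log axis, for animal 1 (blue) and animal 2 (red); circles are the first quantification, triangles the second, squares the first summed over protein-coding transcripts only, and black lines are means of the 2 animals. Sgca stands highest in the first quantification (103.6 TPM) and Utrn lowest (9.98), and Dmd falls from 39.6 TPM to 23.8 when only protein-coding transcripts are summed.

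Dystrophin had the most counts of the 8 genes but not the highest level. Dmd (ENSMUSG00000045103.17) lies on the plus strand of the X chromosome, mm10 82948870 to 85206141, a gene of 2257 kb that males carry once. Its level was 39.53 TPM in animal 1 and 39.66 in animal 2 (39.6 ± 0.0919, SD, n = 2), with posterior intervals of 36.8 to 42.7 and 37.4 to 42.6. In TPM the animals were nearly equal and their intervals overlapped over most of their width. Rescaled to nuclear protein-coding genes, Dmd was lower in animal 2 (101.7 and 97.7). Dmd stood above 89.4% of detected genes in TPM. It drew 10998 and 11880 expected counts against 3354 and 3499 for Sgca, whose level per length was the higher one, since the mean length of Dmd transcripts, weighted by abundance, was 9743 and 9905 bases against 1179 and 1249 for Sgca.

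Of 14 annotated Dmd transcripts, 1 carries the full-length message: Dmd-203, with 79 exons, 14910 bases and 3678 codons. It held 59.97% of Dmd abundance in animal 1 and 60.39% in animal 2 (60.2% ± 0.297, SD, n = 2), but 92.1% and 91.2% of Dmd counts, since a long transcript yields more reads per molecule. No other annotated Dmd transcript reached 10000 bases, so full-length messages from other first exons were not separated here. Its own level was 23.71 TPM in animal 1 and 23.95 in animal 2. The remaining abundance was mostly given to 2 short entries without a coding region. Dmd-212, a retained intron entry of 3055 bases, took 15.53% and 21.35%, and Dmd-210, a processed transcript of 868 bases, took 13.15% and 8.05%. Exons of Dmd-203 cover 70.1% of the bases of Dmd-212 and 78.1% of those of Dmd-210, so many reads fit either. The second quantification gave these entries other shares: 1.84% for Dmd-212 and 34.0% for Dmd-210, with 56.2% for Dmd-203. All retained intron entries together held 22.9% and 27.55% of Dmd abundance in the first quantification and 8.87% and 9.29% in the second.

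The short coding transcripts of Dmd, Dmd-201 (617 codons) and Dmd-202 (604 codons), begin 2099510 bases downstream of the start of Dmd-203 and encode the C-terminal part of dystrophin. Both had 0 expected counts in both animals and in both quantifications. A count of 0 is no measure of their absence here, because 98.9% and 97.5% of their bases lie in exons of Dmd-203. The 57.7 and 57.5 counts at that start were assigned to 3 retained intron entries, Dmd-206, Dmd-207 and Dmd-213. They made up 3.34% of Dmd abundance in animal 1 and 2.97% in animal 2, but 1.14% and 2.09% in the second quantification.

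**Figure D2:**
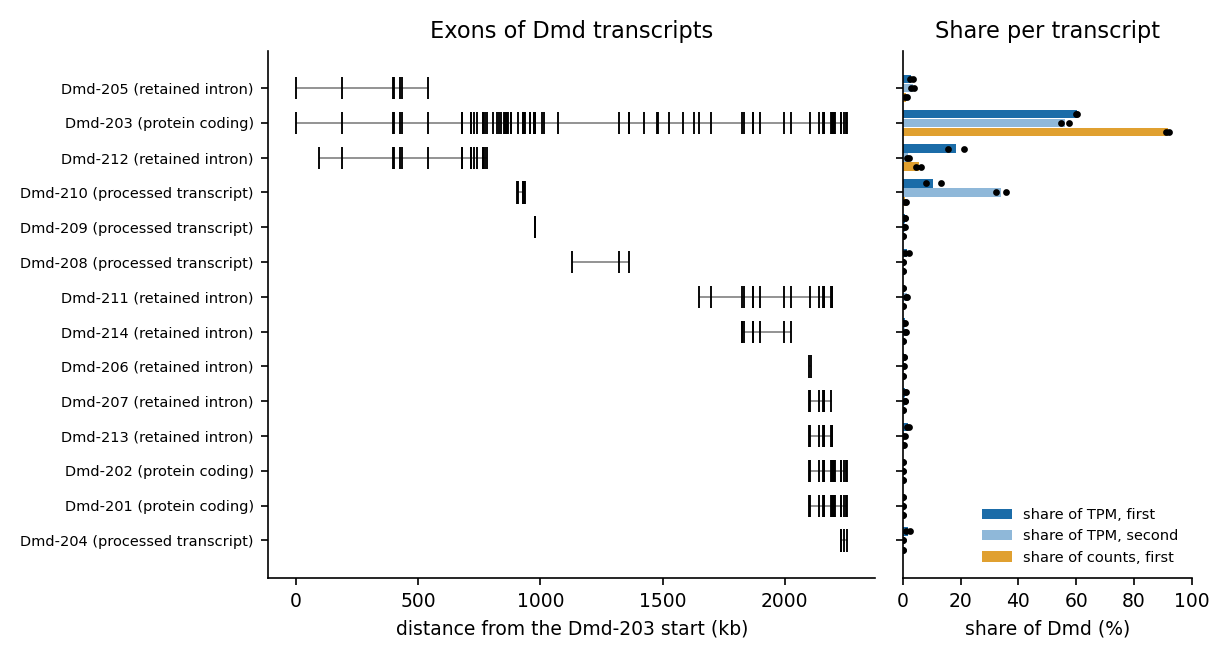
Left, exons (vertical ticks, not to width) of the 14 annotated Dmd transcripts by distance in kb from the start of Dmd-203; right, share of Dmd per transcript in percent, as share of TPM in the first (dark blue) and second (light blue) quantification and of counts in the first (orange), bars for the mean of the 2 animals and dots for each animal. Dmd-203 holds 60.2% of TPM and 91.7% of counts, and Dmd-210 moves from 10.6% to 34.0% between quantifications.

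Utrophin was the lowest of the 8 genes. Utrn (ENSMUSG00000019820.11) lies on the minus strand of chromosome 10, 12382188 to 12869365. Its level was 8.39 TPM in animal 1 and 11.56 in animal 2 (9.98 ± 2.24, SD, n = 2), above 62.1% of detected genes. Animal 2 was higher, and the posterior intervals, 8.29 to 10.3 and 10.9 to 13.3, did not overlap. The expected counts were 2189 and 2787. The mean transcript length of Utrn was 9146 bases in animal 1 and 7994 in animal 2, and the log2 ratio of animal 2 over animal 1 was 0.46 in TPM but 0.16 in scaled counts. Utrn-201, the leading transcript with 74 exons and 3430 codons, held 50.88% and 46.39% of Utrn abundance. Transcripts of 10000 bases or more, Utrn-201 and Utrn-205, together held 67.4% and 57.7%. Dmd exceeded Utrn by 4.71 times in TPM in animal 1 and by 3.43 times in animal 2, a mean log2 ratio of 2.01 ± 0.32 (SD, n = 2). Summed over protein-coding transcripts only, this log2 ratio was 1.42.

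Dystroglycan is made as 1 precursor from Dag1 (ENSMUSG00000039952.15, chromosome 9, 108204634 to 108263958, minus strand) and cleaved into its alpha and beta subunits. Dag1 stood at 64.89 TPM in animal 1 and 71.66 in animal 2 (68.3 ± 4.79, SD, n = 2), above 93.8% of detected genes. Animal 2 was higher in TPM, and its posterior interval of 67.9 to 73.4 lay above that of animal 1, 61.6 to 66.3. Dag1 exceeded Dmd by 1.64 and 1.81 times in TPM in the 2 animals. Summed over protein-coding transcripts only, these ratios were 2.70 and 2.95, and in the second quantification 1.72 and 2.09. The leading Dag1 transcript, of 5662 bases and 893 codons, held 60.8% ± 0.42 (SD, n = 2) of Dag1 abundance. A pair of shorter transcripts with the same number of codons held 16.9% and 9.72%. In the second quantification the leading one held 46.4%, the first of the pair almost nothing and the other 27.0%. There the level of Dag1 was higher, at 97.9 and 119.1 TPM, and in animal 2 it passed Sgca (113.9).

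The sarcoglycans form a complex of several chains in skeletal muscle, of which alpha, beta and delta are among the 8 genes. Sgca, alpha-sarcoglycan (ENSMUSG00000001508.15, chromosome 11, 94962791 to 94976327, minus strand), stood at 107.63 TPM in animal 1 and 99.57 in animal 2 (103.6 ± 5.70, SD, n = 2). Sgcb, beta-sarcoglycan (ENSMUSG00000029156.11, chromosome 5, 73632749 to 73647790, minus strand), stood at 36.32 and 37.72 TPM (37.0 ± 0.990). Sgcd, delta-sarcoglycan (ENSMUSG00000020354.15, chromosome 11, 46896253 to 47988969, minus strand), stood at 23.87 and 26.36 TPM (25.1 ± 1.76). In TPM of the first quantification animal 1 was higher for Sgca alone of these genes. In the second, Sgca was nearly equal, at 113.5 and 113.9 TPM. Rescaled to nuclear protein-coding genes, which held 38.9% and 40.6% of TPM, Sgcb was also slightly higher in animal 1 (93.5 and 92.9). No animal of 1 gene reached the range of another. These chains were thus not at equal transcript levels: Sgca exceeded Sgcb by 2.96 and 2.64 times in TPM and Sgcd by 4.51 and 3.78 times. The second quantification gave smaller ratios, 2.55 and 2.41 times over Sgcb and 3.11 and 2.83 times over Sgcd. Sgce, the epsilon chain found in many tissues, was 24.9 and 25.0 times lower than Sgca, and Sgcz, the zeta chain, had no counts in either library in the first quantification, which allows up to 0.0855 and 0.0802 CPM (3 counts of each library). The second gave Sgcz 0.138 and 0.231 TPM. This floor covers counting error only.

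Transcript composition differed among the sarcoglycan genes. Sgcb-201 (320 codons) held 95.9% ± 0.23 and Sgcd-201 (289 codons) 96.95% ± 0.33 (SD, n = 2) of their genes, with 98.5% and 97.4% in the second quantification. Sgca-202 (387 codons) held 45.0% ± 1.39. Sgca-201, with as many codons and a start 2864 bases downstream, held 19.15%, and the shorter Sgca-204 and Sgca-203 held 23.3% and 12.5%. The second quantification gave Sgca-202 88.0% and both Sgca-201 and Sgca-204 0, so the split of Sgca between these entries was not settled, while the gene level moved from 103.6 to 113.7 TPM. Sgca-202 starts at the Sgca sequence shown above and had 2219 and 2272 expected counts.

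Sspn (ENSMUSG00000030255.13, chromosome 6, 145931641 to 145965223, plus strand) encodes sarcospan, a small protein with 4 membrane spans that sits with the sarcoglycans. Its level was 22.69 TPM in animal 1 and 25.04 in animal 2 (23.9 ± 1.66, SD, n = 2), above 82.5% of detected genes. Animal 2 was higher, within the range of Sgcd. The first quantification put 99.7% of Sspn on Sspn-201 (216 codons). The second put 84.0% in animal 1 and 39.1% in animal 2 on Sspn-203 (140 codons), which shares 94.7% of its bases with exons of Sspn-201.

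Alpha-dystrobrevin transcripts were spread over 4 coding forms from nearly the same start. Dtna (ENSMUSG00000024302.16, chromosome 18, 23415135 to 23659715, plus strand) stood at 35.49 TPM in animal 1 and 38.40 in animal 2 (36.9 ± 2.06, SD, n = 2), above 88.5% of detected genes. Animal 2 was higher, and both values lay beside those of Sgcb. Transcripts starting within 200 bases of the leading one held 94.9% and 98.9% of Dtna abundance. Among them the shortest coding form led: Dtna-201, with 12 exons, 1596 bases and 371 codons, held 39.45% in animal 1 and 41.72% in animal 2 (40.6% ± 1.61, SD, n = 2). Dtna-206, of 567 codons, followed with 22.73% and 22.13%. Dtna-203, of 746 codons and the longest coding region, held 14.85% and 18.17%, and Dtna-202, of 682 codons, held 15.14% and 16.16%. The short form led in both animals, the 567-codon form was second in both, and the order of the longest forms differed between animals. In counts the order turned, with 18.8% for Dtna-201 and 30.5% and 30.01% for Dtna-206 and Dtna-202, which are longer. The second quantification kept Dtna-201 first (35.5%) and gave 6.87% to Dtna-205, a processed transcript of 723 bases that held 2.70% and 0.76% in the first. Dtnb, the paralog of Dtna, was at 0.83 and 2.12 TPM.

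**Figure D3:**
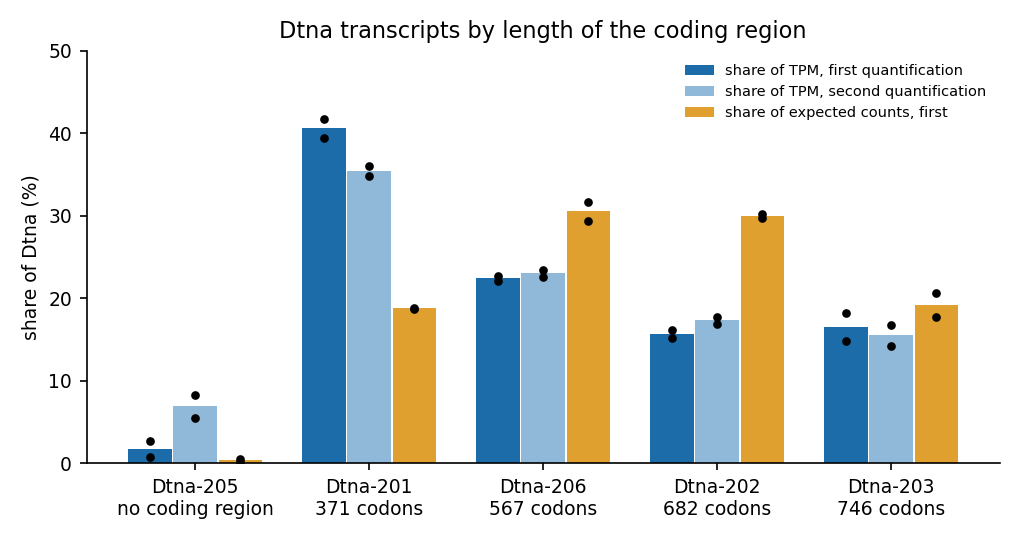
Share of Dtna per transcript in percent, ordered by the codons of the coding region, as share of TPM in the first (dark blue) and second (light blue) quantification and of expected counts in the first (orange); bars are means of the 2 animals and dots single animals. Dtna-201 leads in both quantifications, at 40.6% and 35.5% of TPM, and holds 18.8% of counts.

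The libraries of the 2 animals were compared over the 14754 genes with at least 20 counts in sum, with an exact, two-sided binomial test of TMM-scaled counts and p-values adjusted by Benjamini and Hochberg. Called genes are those that differed over 2-fold with an adjusted p under 0.05. None of the 8 genes was called, against 1.75% of all genes, and 4 had an unadjusted p under 0.05, against 24.7% of all genes. Without the fold condition 3 of 8 passed the adjusted p, against 14.8% of all genes. Of these, 1 was higher in animal 2 (background 7.96%) and 2 were lower (6.87%). Power rises with counts, and all 8 genes had a summed count of 2000 or more: 37.6% of such genes passed, and 22% passed as higher in animal 2. The members' share was thus near that of genes of like count. Their median log2 ratio, animal 2 over animal 1, was 0.01, against 0.02 for all genes tested.

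Of the members that passed, Utrn was higher in animal 2 by a log2 ratio of 0.16 (95% interval 0.08 to 0.24, adjusted p = 0.00104, binomial test). Sgca was lower by a log2 ratio of -0.12 (-0.19 to -0.06, adjusted p = 0.00429), and Dmd by -0.07 (-0.11 to -0.04, adjusted p = 0.0014). Sgcb (-0.04), Dag1 (-0.01), Sspn (0.04), Sgcd (0.05) and Dtna (0.08) did not pass. The intervals cover sampling of reads alone. Scaled by library totals instead, the median of all genes moved from 0.02 to 0.11. Then 4 members passed, all as higher in animal 2 (Utrn, Dag1, Dtna and Sspn), and 82.8% of all genes that passed were higher, against 53.7% with TMM. Dmd (0.019), Sgca (-0.03) and Dag1 (0.080) all lay below the shifted median, but Dmd and Dag1 had turned sign, as had Sgcb (0.050). Dmd and Sgca no longer passed under library totals (adjusted p = 0.547 and 0.603), and Dag1 did. Utrn passed with the same sign under each scaling. The Schwann and slow fibre markers rose in the same library as Utrn, with medians of 0.91 and 0.82. Of these markers 6 of 8 and 6 of 6 passed as higher, as did 2 of 6 endothelial markers. So did 5 of 8 smooth muscle and pericyte markers (median 0.25), among them Des (0.03), which muscle fibres also express. Myh11 (-0.08) of that list did not pass, nor did Tek (-0.01) and Egfl7 (-0.20) of the endothelial list (median 0.10). Of 8 skeletal muscle fibre markers 6 passed as lower with TMM, as did Sgca and Dmd, and 2 as higher (median -0.09). With library totals only Myh4 (-0.14), Tnnt3 (-0.15) and Atp2a1 (-0.03) of these markers passed as lower. Acta1 (0.10), Myh1 (0.12) and Ckm (0.07) passed as higher there, and Mylpf and Ryr1 did not pass. The part of these cell types in the member differences was not tested.

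**Figure D4:**
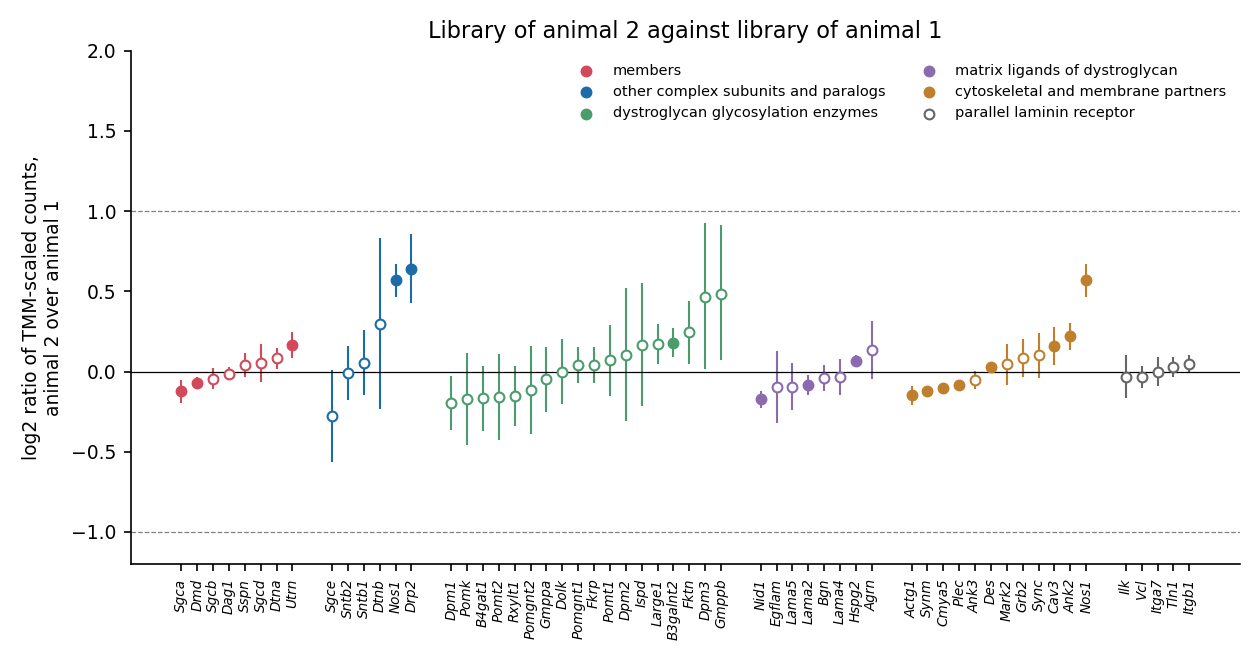
Log2 ratio of TMM-scaled counts, animal 2 over animal 1, for the 8 genes (members, red) and tested genes of 5 related lists that are reported here, with 95% intervals for sampling of reads; filled points passed an adjusted p under 0.05, and dashed lines mark 2-fold. The 8 genes lie between -0.12 (Sgca) and 0.16 (Utrn), and the highest ratio is that of Drp2 (0.64); Nos1 is in 2 lists.

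A further 57 genes of the pathway were listed, of which 49 were detected and 51 tested. None was called (background 1.75%), and 18 had an unadjusted p under 0.05 (24.7% of all genes). The adjusted p was passed by 7 as higher (7.96% of all genes) and 6 as lower in animal 2 (6.87%). With library totals the split was 14 and 1, where 82.8% of all genes that passed were higher. Among the other subunits and paralogs 7 of 11 were detected. Nos1, the neuronal nitric oxide synthase that the complex anchors, stood at 6.91 and 11.14 TPM. Below a TPM of 1 in at least 1 library were Sgcz, Dtnb, Sntg1 and Sntg2, the last pair being syntrophins known from brain. In this list 2 genes passed as higher in animal 2 and none as lower: Drp2, a dystrophin relative known from Schwann cells (1.53 and 2.57 TPM, log2 ratio 0.64), and Nos1 (log2 ratio 0.57). Drp2 was named after its values were seen. These moved with the Schwann and slow fibre markers given above, whose part in them was not tested.

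The enzymes that build the sugar chains of dystroglycan were all detected, 18 of 18, between 1.47 and 30.61 TPM, with a median of 6.99 against 6.82 for all detected genes. The highest were Dpm1, a subunit of the enzyme that makes dolichol-phosphate mannose (30.61 and 27.45 TPM), B3galnt2 (20.78 and 25.00) and Pomgnt1 (17.23 and 18.80), both glycosyltransferases of the chain. Of 18 tested, B3galnt2 alone passed, higher in animal 2 with a log2 ratio of 0.18. No enzyme passed as lower.

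Of 10 matrix ligands 8 were detected. Bgn, biglycan, had 40.29 and 45.42 TPM, Hspg2, perlecan, 34.81 and 40.87, and Nid1, nidogen, 31.69 and 29.84. Lama2, the laminin chain of the muscle basement membrane and named here after its values were seen, had 24.43 and 28.16. Lama1, a laminin chain known from other tissues, was below 1 TPM in both libraries. By scaled counts Hspg2 passed as higher (log2 ratio 0.07) and Nid1 (-0.17) as lower. Lama2 passed as lower (-0.08), but did not pass with library totals, where it turned sign (0.0083), nor with spike-in or protein-coding totals, and was higher in animal 2 in TPM. Of 5 fibroblast markers 3 passed as lower in animal 2, as did Nid1, though Col3a1 was nearly equal in TPM (228.8 and 229.3). Of 8 skeletal muscle fibre markers 6 also passed as lower and 2 as higher with TMM, a split that changed with library totals as given above. The part of these cell types in the Nid1 and Lama2 values was not tested.

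Of 14 cytoskeletal and membrane partners 12 were detected, and this was the list with the highest levels: Des, desmin, at 713 TPM, Cmya5, myospryn, at 379, and Plec, plectin, at 284. The keratins Krt8 and Krt19 were below 1 TPM in both libraries. Of 12 tested, 4 passed as higher (Nos1, Ank2, Cav3 and Des) and 4 as lower (Actg1, Synm, Cmya5 and Plec). None of the last 4 passed with library totals (adjusted p = 0.208, 0.156, 0.095 and 0.558), where Plec turned sign (0.0071). With TMM 14.8% of all genes passed at any ratio, and 37.6% of those at or past the 2000-count limit used above. Some listed genes lie far past that limit, such as Cmya5 (128755 and 136085 counts) and Plec (74920 and 80264). Whether the list passed more often than genes of like depth was not tested. The integrin route to laminin, which runs beside the complex, was detected in all 5 listed genes. Itgb1 stood at 65.8 ± 4.82 TPM, Vcl at 30.7 ± 0.0566 and Itga7, the muscle laminin receptor chain, at 25.2 ± 0.453 (SD, n = 2). None of these 5 passed in either direction with TMM, but Itgb1 (0.14) and Tln1 (0.12) passed as higher with library totals. Dag1 (68.3 TPM) was close to Itgb1 in level in the first quantification. In the second Dag1 was higher than Itgb1 in each animal, at 97.9 and 119.1 TPM against 82.7 and 95.9.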

How the data were processed

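Total RNA of gastrocnemius from 2 animals was measured, with 1 library each. Per the file headers, the authors deposited a gene and a transcript table of expected counts (estimated counts, which need not be whole) and TPM, with posterior mean TPM, its interval bounds (level not stated) and each transcript's percent of the abundance of its gene. A second deposited transcript table holds estimated counts and TPM. The tables use mm10 and GENCODE M21, per the labels and the descriptions deposited with the tables. Not given in the sources used here are the aligner, tool versions and use of strand, so overlapping and antisense genes are uncertain.

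From these, whole numbers were made of the counts by rounding, and TMM factors were taken (edgeR 4.0.16, R 4.3.3). DESeq2 1.42.0 size factors were an alternative. The exact conditional binomial test (scipy 1.17.1, Benjamini-Hochberg adjustment) ran over all genes that had at least 20 counts in sum, and log2 ratios used a prior count of 0.5. The script was tested on simulated data. The second table was summed to genes. With 1 library per animal, no exact test over animals could go below p = 0.5 (two-sided).

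Named were all members, Dmd and Dtna transcripts at a mean share of 5% or more in either quantification, the leading transcript of other members, and of each wider list the 3 highest genes, called genes and genes below TPM of 1. Other named genes and transcripts were chosen after their values were seen. Some genes of the wider lists enter the counts but are not reported here. Members and lists were chosen with earlier results of these data known.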

Additional observations from a re-analysis of the deposited data

How the results depend on the processing

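Under every alternative run, all 8 genes were detected and none was called. With 1 library per animal and reads without molecular identifiers, sampling error is the only error measured. The summed level of 344.4 TPM moved to 457.3 in the second quantification and to 867.0 when TPM was rescaled to nuclear protein-coding genes. After seeing the data, protein-coding transcripts only (323.2 TPM) and the rescaled second quantification (728.3 TPM) were added. Single animals gave 338.8 to 350.0 TPM. The log2 ratio of Dmd over Utrn moved from 2.01 to 1.42 with protein-coding transcripts only, an alternative added likewise, and ran from 1.78 to 2.24 over single animals. The share of long Dmd transcripts, 60.2%, became 56.2% in the second quantification, 58.3% as posterior mean and 91.7% of counts (single animals 59.97% to 60.39%). The share of Dtna-201, 40.6%, became 35.5% in the second quantification (single animals 39.45% to 41.72%). At 1.5-fold, 1 of the wider genes was called. With library totals in place of TMM, the log2 ratio of Dmd turned to 0.019, that of Dag1 to 0.080 and that of Sgcb to 0.050, Sspn and Dag1 passed the adjusted p, and so did Dtna, as it did with spike-in and protein-coding totals, both added after seeing the data. Members past the adjusted p numbered 4 in place of 3 under each of these scalings, 4 higher and 0 lower with library totals and 2 of each with the others. Depth limits Dtnb and the genes below 1 TPM most.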
